A study of Mus musculus with 10 samples.

Results

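Calcineurin and NFAT signaling was followed in the gastrocnemius (GAS), a calf muscle made mostly of fast fibers, through 10 genes: the catalytic subunits Ppp3ca, Ppp3cb and Ppp3cc, the regulatory subunit Ppp3r1, the calcium-regulated transcription factors Nfatc1, Nfatc2, Nfatc3 and Nfatc4, and the calcineurin regulators Rcan1 and Rcan2. They were chosen by symbol from the 21098 genes of the count table. The libraries came from male wild-type C57BL/6J mice with diet-induced obesity (DIO). These mice were put on a high fat diet at the age of 9 weeks and had been on it for 9 weeks when the injections began. The study states that all had passed 40 g by then. Its weight list for the DIO mice, however, has CTRL mice below 40 g on the first day listed, and no ASO mouse below it. Weight was thus not matched between the listed groups, and no label links a library to a listed weight. Both groups were then injected subcutaneously every week for 14 weeks and stayed on that diet. The series description gives an age of 30 weeks at the end, which is less than these times add up to. The anti-miR-22 ASO group (label RES-010, a locked nucleic acid antisense oligonucleotide) received 10 mg/kg, and CTRL received saline, labelled vehicle. Each group had 5 libraries, and no group had a control oligonucleotide. The labels do not say that each library is a separate mouse, so p-values measure the spread between these libraries.

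Calcineurin is a phosphatase that a rise in cytosolic calcium switches on through calmodulin. It removes phosphates from NFAT proteins, which then enter the nucleus and switch on target genes, and kinases such as DYRK and GSK3 add the phosphates back. In skeletal muscle the pathway is best known for maintaining the slow fiber program. RCAN proteins bind calcineurin and dampen it, and a short form of Rcan1, transcribed from an internal promoter, is a widely used readout of NFAT activity. All of this control acts on proteins, which an RNA count does not show.

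The ASO binds miR-22, and the table counted poly(A) RNA, so the miRNA itself was not measured here. Its mature sequence is shown because the seed, in capitals, defines the site searched in the 10 genes. It is given 5′ to 3′ from RefSeq (GRCm38.p6, plus strand, chr11:75463772-75463793).
mmu-miR-22-3p: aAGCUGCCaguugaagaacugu
The complement of the seed, GGCAGCT, occurred in the longest annotated 3′UTR of 1 of the 10 genes, Nfatc2, against 22.8% of 21713 genes with an annotated 3′UTR and 31.9% of the 7813 genes tested. The Nfatc2 site lay at chr2:168318938-168318944 on the minus strand (GRCm39), outside the counted segment of that gene. It is shown with the site in capitals.
Nfatc2 site: gacccaaaccaGGCAGCTgcagagcgggag
The seed match was found in neither Rcan1 nor Rcan2.

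The internal Rcan1 promoter was searched for GGAAA, the core that NFAT proteins recognise, on both strands. The RefSeq promoter window of 250 bases before and 50 after the start (GRCm38.p6, chr16:92400029-92400328, minus strand) held 3 such motifs, a number that 9.4% of 32851 promoters reached. They are shown in capitals, each in 30 bases of the gene's own strand, where TTTCC is GGAAA read on the opposite strand.
Rcan1 chr16:92400288-92400317: accttagcgcctTTTCCaccctcccgagca
Rcan1 chr16:92400254-92400283: taattagcatagGGAAAatgactaaggtgt
Rcan1 chr16:92400224-92400253: tgacgtcacctcTTTCCagtagaaatttac
The other Rcan1 promoter held 0, and the 3 Rcan2 promoters held 2, 0 and 0. The count of 3 was not particular to Rcan1, since the promoter of Ppp3cb held 4, and that of Nfatc4 and 1 of those of Nfatc2 held 3. The motif is common, since 61.3% of all promoters held at least 1. A motif match is a description of the sequence and not a measured binding site.

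Counts were taken on segments, at most the last 500 bp of each annotated transcript, and summed per gene. Depth ran from 1606909 to 2632560 counts per library, and every ASO library was deeper than every CTRL library. Of the 10 genes, 9 had any count and 6 passed the filter on low counts (Ppp3ca, Ppp3cb, Ppp3r1, Nfatc3, Rcan1 and Rcan2). Values are CPM, the counts scaled to library size by TMM, as mean ± SD of 5 libraries. Log2 fold changes with their standard errors (SE) and adjusted p-values come from edgeR (quasi-likelihood fit, Benjamini-Hochberg over every gene tested), at a threshold of 0.05. In whole muscle, fewer cells of a type and less RNA per cell cannot be told apart.

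Both RCAN genes were lower in the ASO group, and none of the 6 tested genes was higher. The 4 other tested genes, Ppp3ca, Ppp3cb, Ppp3r1 and Nfatc3, did not pass the threshold. Among all genes tested, 29.2% were called, 17.4% lower and 11.8% higher, and with 6 genes the count of 2 lower is not read against that background as a result of the group. The balance of calls depended on scaling: 920 genes were higher and 1363 lower with TMM, 528 and 1819 with total counts only, and 1262 and 1206 with upper quartile scaling. Relative to the median gene, Rcan2 lay between -1.33 and -1.31 and Rcan1 between -0.98 and -0.94 on the log2 scale under the 4 scalings tried. A change of scaling moves all genes nearly alike, so this narrow range follows from the subtraction and is no check of the falls.

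**Figure D1:**
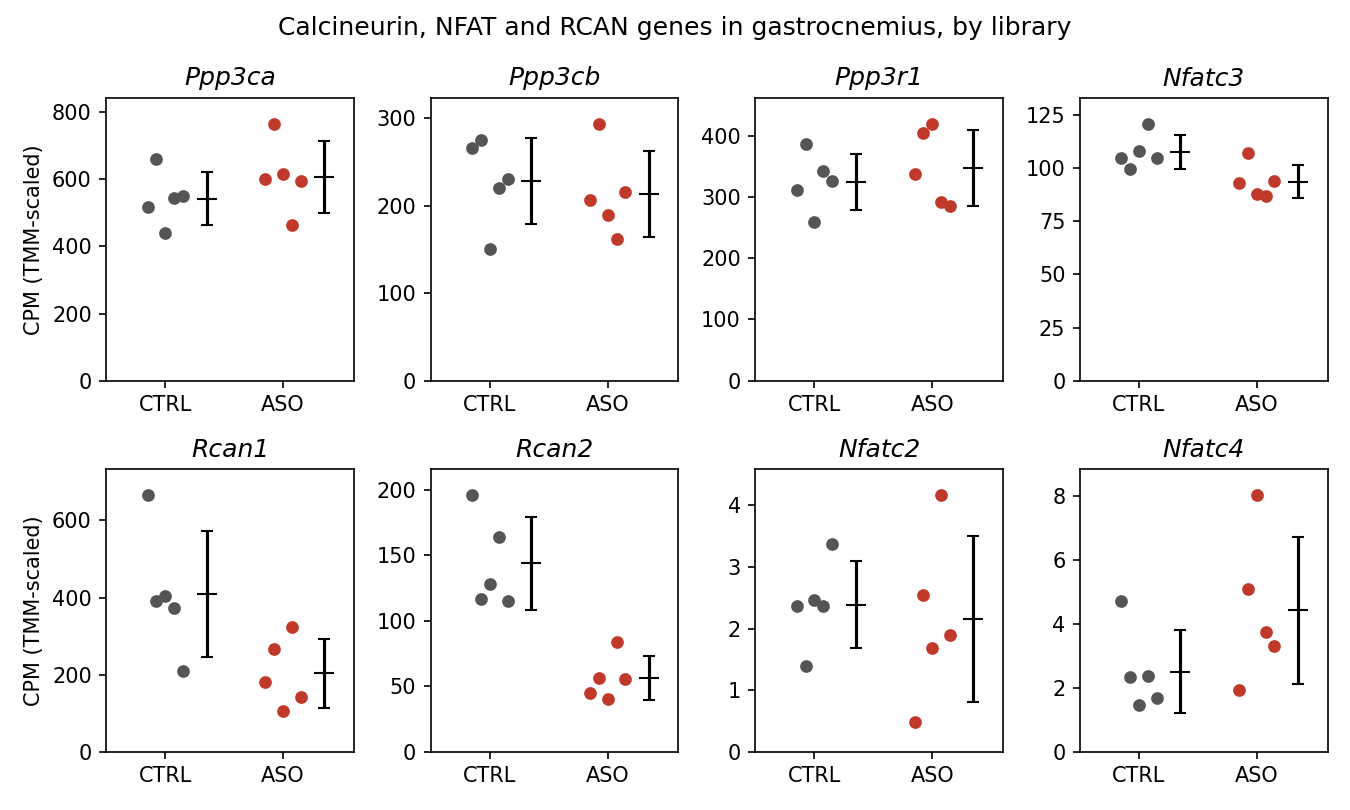
CPM (y axis, TMM-scaled, each panel from 0) of 8 of the genes in the 5 CTRL and 5 ASO libraries (points), with mean and SD beside them. Rcan2 does not overlap between the groups, while the subunits, Nfatc3 and Rcan1 overlap, and Nfatc2 and Nfatc4 stay under 10 CPM.

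Rcan2, a calcineurin regulator abundant in muscle and brain, showed the largest change of the 6 tested genes. In CTRL its level was 196, 117, 128, 164 and 115 CPM in libraries 1 to 5. In the ASO group it was 44.9, 56.5, 40.6, 83.5 and 55.6 CPM. The highest ASO library thus lay below the lowest CTRL library, a separation seen toward lower levels in 13.4% of all genes tested. The mean fell from 144 ± 35.4 to 56.2 ± 16.7 CPM, which was 2.56-fold lower (log2 fold change -1.35, SE 0.22, edgeR adjusted p = 0.00099). A two-sided exact permutation test over the 252 labellings gave p = 0.0079, the smallest it can give with 5 against 5. Rcan2 stayed past the threshold in each of the 10 fits that left out 1 library, with log2 fold changes between -1.52 and -1.21.

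Rcan1, the calcineurin-responsive regulator, was also lower, with a wider spread. Its level was 666, 390, 403, 373 and 211 CPM in CTRL. It was 181, 268, 106, 323 and 142 CPM in the ASO group. The groups overlapped, since ASO libraries 2 and 4 lay above CTRL library 5. The mean went from 409 ± 163 to 204 ± 89.8 CPM (log2 fold change -1.0, SE 0.33, edgeR adjusted p = 0.038), and the two-sided exact permutation test gave p = 0.048. This call was borderline and held in only 3 of the 10 fits that left out 1 library. It was lost without ASO replicate 1 (log2 fold change -0.94), ASO replicate 3 (-0.81), ASO replicate 5 (-0.88), CTRL replicate 1 (-0.75), CTRL replicate 2 (-1.02), CTRL replicate 3 (-1.01) or CTRL replicate 4 (-1.03), with edgeR adjusted p-values from 0.052 to 0.10. It was also just lost with upper quartile scaling (edgeR adjusted p = 0.051).

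Both RCAN genes were counted mainly on segments that ended short of the annotated distal end. Their most distal segments overlap one another, and held 0 counts in Rcan1 and 3 counts in Rcan2. For Rcan1, 89.1% of counts lay on chr16:92189398-92189897 (GRCm39, minus strand, 3′UTR), which ended 557 bp upstream of the distal end, and which fell from 370 ± 144 to 177 ± 80.0 CPM (log2 fold change -1.02, SE 0.33, edgeR adjusted p = 0.024 over 10652 segments). The other Rcan1 segment, chr16:92188891-92189390, ended 50 bp from the distal end and has 44 bp of its own. There the level was 38.7 ± 19.5 CPM in CTRL and 27.1 ± 10.7 CPM in the ASO group (log2 fold change -0.47, SE 0.33, edgeR adjusted p = 0.27), so the fall did not pass the threshold on the more distal stretch. Counts at this 3′ end do not separate the long and short Rcan1 forms. For Rcan2, 99.1% of counts lay on chr17:44349452-44349951 (plus strand, 3′UTR), 456 bp upstream, which fell from 142 ± 35.8 to 56.0 ± 16.9 CPM (log2 fold change -1.30, SE 0.22, edgeR adjusted p = 0.00065). Segments 200 to under 1000 bp upstream were called lower in 26.9% of 1288 cases, at a median of -0.33 on the log2 scale, and 2 of the 4 such segments among the 10 genes, these of Rcan1 and Rcan2, were lower.

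The catalytic subunits did not change past the threshold. Ppp3ca, the catalytic subunit with the most counts, gave 517, 660, 441, 545 and 551 CPM in CTRL. It gave 600, 766, 615, 463 and 595 CPM in the ASO group. The ranges overlapped, with 543 ± 78.7 against 608 ± 107 CPM (log2 fold change 0.16, SE 0.16, edgeR adjusted p = 0.46). Ppp3cb, the other catalytic form with enough counts, ran from 151 to 275 CPM in CTRL and from 162 to 294 CPM in the ASO group (log2 fold change -0.10, SE 0.19, edgeR adjusted p = 0.73). Ppp3cc had 2 counts in all 10 libraries. Its segments leave 33 bp that no other segment covers, so its level was hardly measured by this table.

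Ppp3r1, the calcium-binding regulatory subunit of calcineurin, was counted on 1 segment, chr11:17149876-17150375. It gave 311, 386, 259, 342 and 326 CPM in CTRL and 338, 404, 420, 292 and 286 CPM in the ASO group. The values interleaved, and the log2 fold change was 0.10 (SE 0.16, edgeR adjusted p = 0.66). The scaling set the sign for both Ppp3ca and Ppp3r1, since total counts alone gave -0.01 and -0.08.

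Ratios within a library do not depend on that scaling. Ppp3r1 over the sum of Ppp3ca and Ppp3cb was -1.24 ± 0.07 on the log2 scale in CTRL and -1.24 ± 0.23 in the ASO group, a difference of 0.008 (two-sided exact permutation p = 0.93). Rcan2 over the same sum went from -2.44 ± 0.43 to -3.89 ± 0.58, a 2.73-fold difference of the means (two-sided exact permutation p = 0.016). Rcan1 over the sum went from -0.99 ± 0.64 to -2.10 ± 0.74, a 2.16-fold difference (two-sided exact permutation p = 0.048). Both ratios overlapped between the groups, and they were chosen after the falls of the RCAN genes were seen. Nfatc3 over the sum differed by -0.29 (two-sided exact permutation p = 0.10). Ppp3ca over Ppp3cb was 1.26 ± 0.21 and 1.52 ± 0.12, a difference of 0.25 (two-sided exact permutation p = 0.048). Rcan1 over Rcan2 was 1.44 ± 0.39 and 1.79 ± 0.40, so that the fall of the 2 genes did not differ beyond the spread (difference 0.34, two-sided exact permutation p = 0.23). These were 6 ratios, and adjusted over all 6 by Benjamini-Hochberg none reached 0.05.

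Among the NFAT genes, only Nfatc3 had enough counts for a test. Its summed level was 105, 99.8, 108, 121 and 105 CPM in CTRL. It was 93.2, 107, 88.0, 86.8 and 93.8 CPM in the ASO group. ASO library 2 lay within the CTRL range and the other 4 lay below it. The means were 108 ± 7.94 and 93.7 ± 7.87 CPM (log2 fold change -0.20, SE 0.11, edgeR adjusted p = 0.20), while the two-sided exact permutation test of this single gene gave p = 0.032. The sum joins 2 segments that moved in opposite directions.

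The upstream Nfatc3 segment, chr8:106854576-106855075 (GRCm39, plus strand, 3′UTR), ended 2094 bp before the distal end. It gave 32.5, 36.8, 42.0, 62.0 and 62.4 CPM in CTRL. It gave 11.6, 13.2, 5.50, 7.93 and 6.13 CPM in the ASO group. The groups did not overlap, a separation seen toward lower levels in 45.3% of segments at least 1000 bp upstream, and the mean fell from 47.1 ± 14.1 to 8.86 ± 3.38 CPM, 5.16-fold lower (log2 fold change -2.37, SE 0.28, edgeR adjusted p = 7.3e-05). The distal segment, chr8:106856670-106857169, gave 72.6, 63.0, 66.2, 59.0 and 42.7 CPM in CTRL. It gave 81.6, 93.5, 82.5, 78.9 and 87.7 CPM in the ASO group, all above the CTRL libraries as in 13.4% of most distal segments, and rose from 60.7 ± 11.2 to 84.8 ± 5.79 CPM (log2 fold change 0.52, SE 0.15, edgeR adjusted p = 0.016). The last 219 bp of this segment overlap the opposite strand of Esrp2, whose own segment had 3 counts over the 10 libraries. The bases before the end of the distal segment held a poly(A) signal (AATAAA or ATTAAA, last 50 bases), and those of the upstream segment did not, against 63.5% of all 500 bp segments with one.

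The share of Nfatc3 counts on the distal segment was therefore 69.1, 63.1, 61.2, 48.8 and 40.6% in CTRL and 87.6, 87.6, 93.8, 90.9 and 93.5% in the ASO group. The mean share went from 56.6 ± 11.6% to 90.7 ± 3.0% (two-sided exact permutation p = 0.0079, the smallest possible), and the difference stayed between 30.1 and 37.2 percentage points when any 1 library was left out. Ppp3ca, whose upstream segment likewise lay over 1000 bp (1948 bp) before its distal end, showed no such shift, with a distal share of 37.1 ± 2.89% in CTRL and 36.4 ± 3.11% in the ASO group (two-sided exact permutation p = 0.66). The 2 genes differed in this respect: the log2 ratio of distal over upstream counts rose by 2.96 more in Nfatc3 than in Ppp3ca (two-sided exact permutation p = 0.0079). This pair was chosen after seeing the data, so that p-value only describes the difference. Neither Ppp3ca segment passed the threshold, at log2 fold changes of 0.18 and 0.22. The distal share of Rcan1 went from 9.28 ± 0.93% to 13.9 ± 3.63% (two-sided exact permutation p = 0.016), and that of Ppp3cb from 6.54 ± 0.80% to 7.29 ± 0.92% (two-sided exact permutation p = 0.21).

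**Figure D2:**
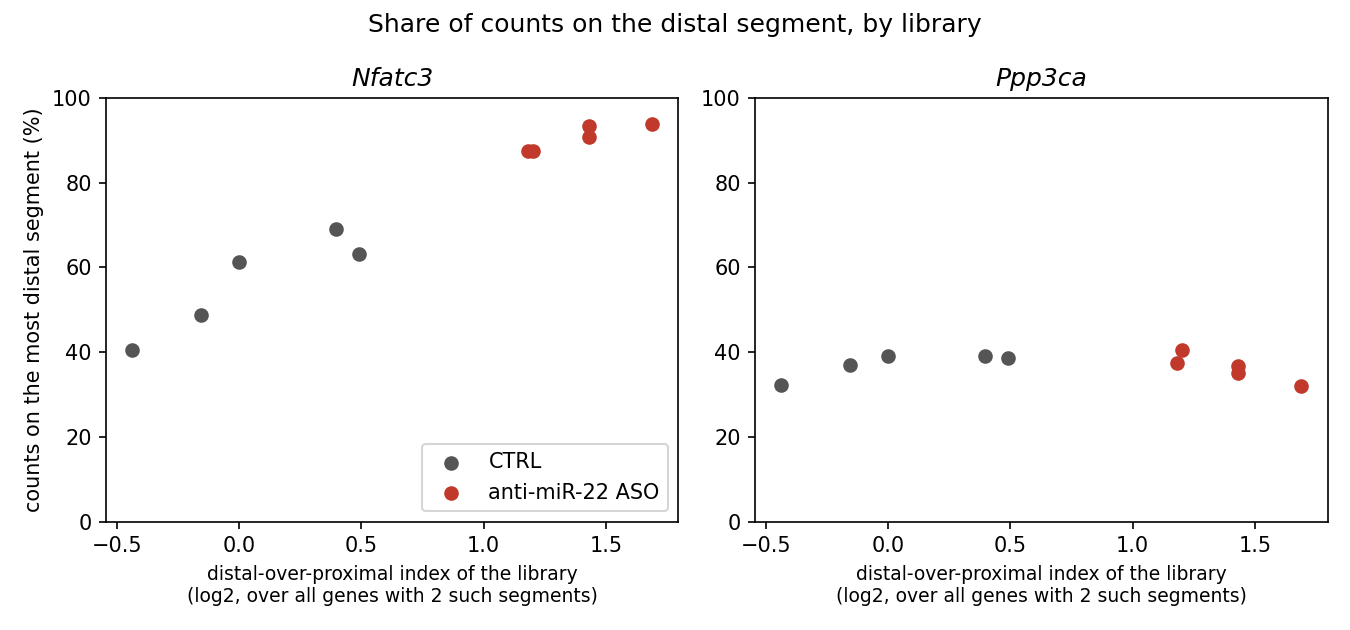
Percent of Nfatc3 (left) and Ppp3ca (right) counts on the most distal segment against the distal-over-proximal index of the library (log2, median over 1575 genes), 1 point per library. Nfatc3 climbs from 40.6% in the CTRL library of lowest index to 93.8% in the ASO library of highest index, while Ppp3ca stays between 32 and 40.5%.

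A similar shift ran through the libraries as a whole. An index of distal over proximal counts, the median log2 ratio over 1575 genes with well-counted segments at least 1000 bp apart, was 0.40, 0.49, 0.00, -0.16 and -0.44 in CTRL and 1.18, 1.2, 1.69, 1.43 and 1.43 in the ASO group. Within CTRL, libraries 4 and 5, with the lowest index, also had the lowest Nfatc3 distal share, and library 5 had the lowest Rcan1 level of its group. Within the ASO group no single order held. Library 3, with the highest index, had the lowest Rcan1 and Rcan2 levels, while library 4, above libraries 1 and 2 in the index, had the highest of both. Segments at least 1000 bp upstream were called lower in 53.7% and higher in 5.43% of 3737 cases, and the most distal segments higher in 25.2% and lower in 4.37% of 5060. Of 2272 genes with 2 or more tested segments, 13.6% had 1 called higher and another called lower, as Nfatc3 did. The part of the index in the Nfatc3 and RCAN results was not tested. The same holds for the Ppp3cb segment at chr14:20557739-20558238, in an intron 8307 bp upstream, which fell from 8.74 ± 3.05 to 3.57 ± 1.37 CPM (log2 fold change -1.22, SE 0.35, edgeR adjusted p = 0.013) while the remaining 3 Ppp3cb segments did not pass the threshold.

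**Figure D3:**
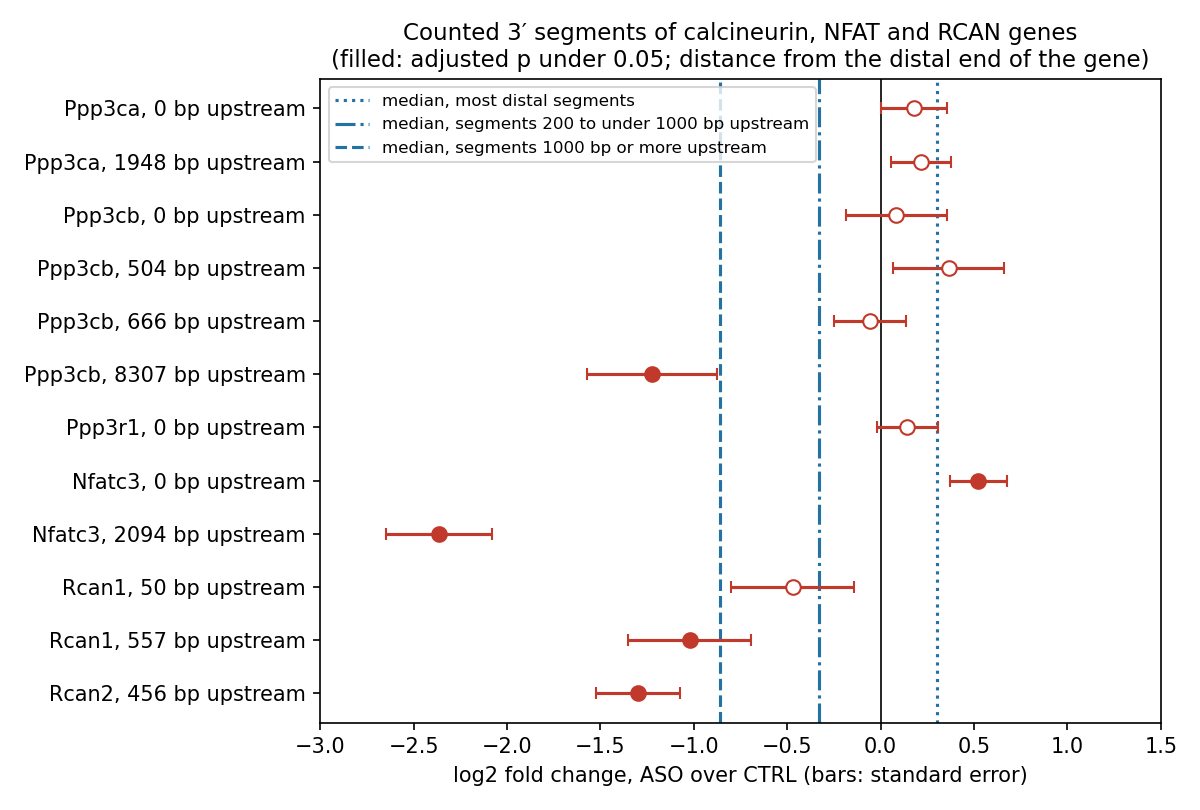
Log2 fold change (x axis, ASO over CTRL, bars SE) of the 12 tested segments of the 6 genes, labelled by their distance in bp from the distal end of the gene, with filled points past the threshold. The blue lines mark the medians of all segments by position, at 0.30, -0.33 and -0.86, and the upstream Nfatc3 segment lies furthest below them at -2.37.

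Of these 12 segments, 4 were lower and 1 was higher (2 of the 3 at least 1000 bp upstream were lower), beside 40.6% called, 24.7% lower and 16.0% higher, among all 10652 segments tested. Levels could be compared only between segments with all 500 bp to themselves, which is an order of segments and not of genes. In CTRL the Rcan1 segment gave 370 ± 144 CPM, the upstream Ppp3ca segment 341 ± 52.3 CPM and the Ppp3r1 segment 325 ± 46.0 CPM, which did not differ beyond their spread. The distal Ppp3ca segment followed at 201 ± 32.9 CPM. The upstream Nfatc3 segment, at 47.1 ± 14.1 CPM, stood well below them. The segment that held 85.9% of the Ppp3cb counts, at 196 ± 42.2 CPM in CTRL, has only 162 bp to itself, so Ppp3cb has no place in this order.

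The other NFAT genes gave few or no counts. Nfatc2 had 48 counts, all on 1 intronic segment at chr2:168360123-168360622 that lay 41793 bp upstream of its distal end, while its distal segments share all their bases and had 0 counts. They were 5, 3, 5, 4 and 6 in CTRL and 1, 6, 4, 10 and 4 in the ASO group, with no separation. Nfatc4 had 25 counts over the CTRL libraries (10, 5, 3, 4 and 3) and 51 over the ASO libraries (4, 12, 19, 9 and 7). Its levels of 2.52 ± 1.29 and 4.42 ± 2.31 CPM overlapped (two-sided exact permutation p = 0.13), and a fit without the low-count filter gave a log2 fold change of 0.82 (SE 0.49, edgeR adjusted p = 0.28). Nfatc1 had 6 segments, none with a base that no other segment covers, and 0 counts in every library, so it was not measured by this table and its 0 says nothing of its level.

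The genes around the pathway were read from lists, given here by counts and medians beside the median log2 fold change of -0.03 over all genes tested, of which 29.2% were called. With at most 16 genes tested per list, these counts are a description and are not read as a change of the list. Of 15 tested calcineurin partners, 1 was higher and 3 were lower (median 0.02). Akap1, which anchors kinases and phosphatases at mitochondria, fell from 57.7 ± 20.9 to 10.5 ± 2.82 CPM (log2 fold change -2.44, edgeR adjusted p = 1.4e-04). Akap6, the anchor at the nuclear envelope, and Calm2, a calmodulin gene, were lower by less (log2 fold changes -0.95 and -0.49). Myoz1, a Z-disc protein that tethers calcineurin, rose from 3620 ± 828 to 6566 ± 1390 CPM (0.86, edgeR adjusted p = 0.0090). The third RCAN gene, Rcan3, gave 6.55 and 7.72 CPM (log2 fold change 0.24, edgeR adjusted p = 0.57).

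Of 16 tested kinases and export factors that act on NFAT, 3 were higher and 4 were lower (median -0.15). Dyrk1a, which primes NFAT for export from the nucleus, rose from 88.1 ± 28.9 to 196 ± 33.1 CPM (log2 fold change 1.15, edgeR adjusted p = 0.0023), and Dyrk2 rose from 113 ± 18.4 to 178 ± 19.6 CPM (0.66, 0.0049). Mapk14, the p38 alpha kinase, fell by 2.51 on the log2 scale, Csnk1d by 1.67, Mapk9 by 1.29 and Mapk8 by 0.65. Gsk3b gave 54.7 and 42.3 CPM (log2 fold change -0.37, edgeR adjusted p = 0.25). Of 13 genes of calcium supply and calmodulin kinases, 2 were higher and 3 were lower (median -0.05). Stim1, the calcium sensor of the store, fell from 414 ± 105 to 95.8 ± 29 CPM (log2 fold change -2.11, edgeR adjusted p = 1.4e-04) while its relative Stim2 rose from 55.4 ± 19.8 to 93.8 ± 13.1 CPM (0.76, edgeR adjusted p = 0.017). Atp2a1, the fast fiber calcium pump, was higher (log2 fold change 1.08, edgeR adjusted p = 0.0041), and the calmodulin kinase genes Camk2d (-0.95) and Camk2b (-0.76) were lower.

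Among 10 tested transcription partners of NFAT, the coactivator Ep300 was higher (log2 fold change 0.70, edgeR adjusted p = 0.035) and Mef2c was lower (-3.04, edgeR adjusted p = 1.1e-04), with a median of -0.07. Of 4 other calcineurin substrates, Dnm1l was lower (-1.17, edgeR adjusted p = 5.1e-04) and the CREB coactivators Crtc1, Crtc2 and Crtc3 did not pass the threshold (0.24, -0.02 and 0.06). All 12 lower genes of these 5 lists had over 50% of their CTRL counts on segments at least 1000 bp upstream, against 1 of the 7 higher genes. Among all genes tested, 61.4% of those called lower and 10.5% of those called higher had their counts placed so. On the most distal counted segment alone, 5 of the 12 lower genes could be tested. Akap1 and Mapk14 were lower there, but all their counts lay far upstream, so that this segment was not at their distal end, and Calm2, Akap6 and Mapk8 did not pass the threshold. Of the 7 higher genes, Myoz1, Prkaca and Atp2a1, counted mainly at the distal end, were higher there too. Dyrk2 and Ep300, also counted mainly at the distal end, did not pass the threshold there (edgeR adjusted p = 0.051 and 0.13). Neither did Dyrk1a (edgeR adjusted p = 0.38) nor Stim2 (edgeR adjusted p = 0.080).

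**Figure D4:**
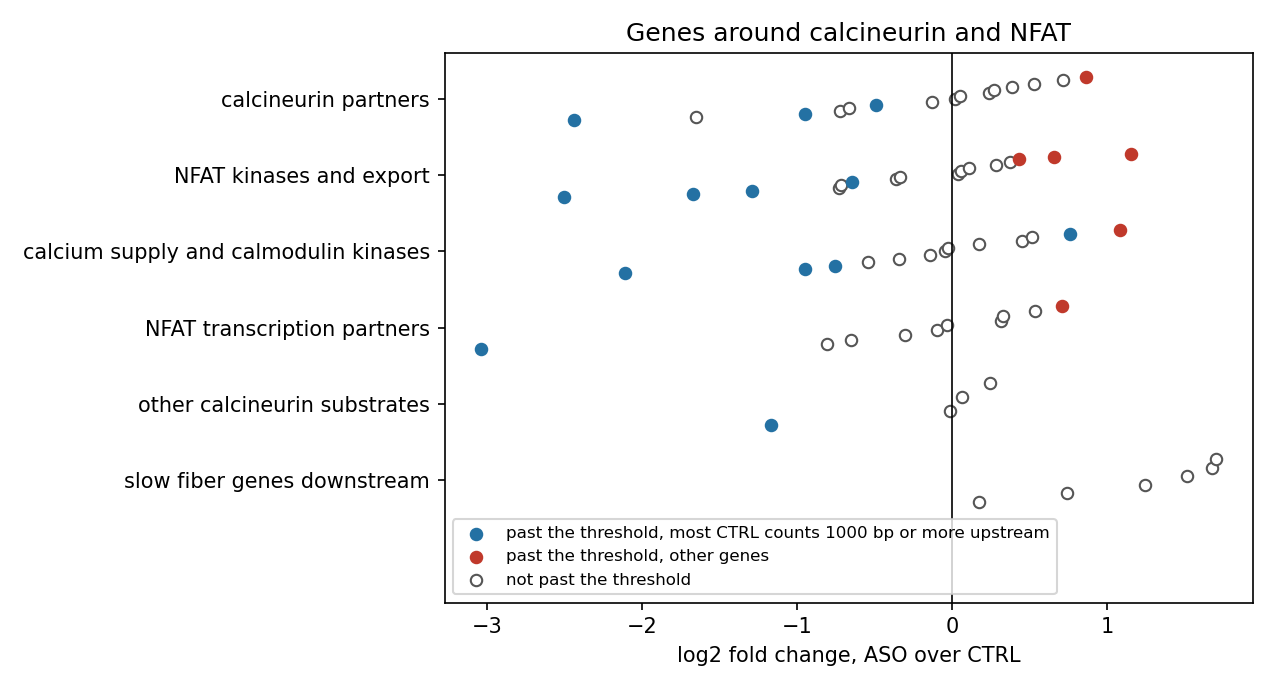
Log2 fold change (x axis, ASO over CTRL) of each tested gene of 6 lists, 1 point per gene, with blue points past the threshold for genes with most CTRL counts 1000 bp or more upstream, red points past the threshold for other genes, and open points not past it. All 12 lower genes are blue, and 6 of the 7 higher genes are red.

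The slow fiber genes that the pathway is known to maintain showed no change past the threshold in any of 6 tested genes. Their summed level was 2560, 421, 379, 993 and 82.6 CPM in CTRL. It was 39.6, 30.2, 1550, 7780 and 815 CPM in the ASO group. Libraries of each group thus ranged from very low to high. The median log2 fold change of 1.38 had no stable direction, since it was -0.67 without ASO replicate 4, 2.40 without CTRL replicate 1 and -0.48 with limma-voom. CTRL library 1 and ASO library 4, the highest of their groups in this sum, were also the highest of their groups in Rcan1 and Rcan2. ASO library 3, next in the sum, had the lowest level of both. Without ASO replicate 4 the log2 fold changes were -1.52 for Rcan2 and -1.21 for Rcan1, and without CTRL replicate 1 they were -1.21 and -0.75. Leaving out 1 library cannot separate the slow fiber genes from the rest of that library, so their part in the RCAN results was not tested.

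Of the genes listed as fast fiber markers, Ckm was at 19251 ± 4623 CPM in CTRL and 36672 ± 8563 CPM in the ASO group. In this list 2 of 4 tested (Ckm and Actn3) were higher, and Acta1 and Pvalb did not pass the threshold (edgeR adjusted p = 0.058 and 0.19). Mylpf and Tnnt3 were listed at 0, and Tnni2, Myh4 and Myh1 had 4, 42 and 1 counts in all. The summed level of this list was at 40600 to 79800 CPM in CTRL and 84700 to 130000 CPM in the ASO group. Most of it came from Ckm and Acta1 (39783 ± 9046 CPM in CTRL). The part of this sum in the RCAN results was not tested. On its most distal counted segment alone, Ckm was at a log2 fold change of -0.01 (edgeR adjusted p = 0.98). The summed markers of T cells, in which NFAT was first described, were at 1.41 to 9.39 CPM in CTRL and 0.943 to 7.19 CPM in the ASO group, with Cd8a and Lck at 0. Since genes of muscle fibers such as Mylpf, Ryr1 and Mb were also listed at 0 in this table, these low values do not show that T cells were absent. Of the tested markers, 1 of 4 for macrophages (Mrc1) and 1 of 4 for fibroblasts (Lum) were lower, and 1 of 5 for mural cells (Acta2) and 1 of 3 for satellite cells (Cdh15) were higher. None of 6 endothelial, 6 adipocyte or 4 Schwann cell markers passed the threshold. The summed satellite cell markers were at 43.8 to 66.2 CPM in CTRL and 96.1 to 123 CPM in the ASO group. That difference came from Cdh15 (38.3 ± 8.28 and 89.6 ± 7.28 CPM), while Pax7 (7.60 and 8.61 CPM) and Vcam1 (6.60 and 8.03 CPM) did not pass the threshold and Myf5 was at 4.39 and 2.88 CPM. Adipocyte markers reached 13700 CPM in CTRL library 3 and lay between 721 and 3760 CPM in the other 9 libraries. Leaving out that library left Rcan2 at -1.40.

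The genes whose profile over the 10 libraries was most like that of each tested gene were ranked by the root mean square difference of scaled log2 CPM over 6594 genes. For Rcan2 they were Ptgr2 (0.134), Abcd3 (0.226) and Arhgap12 (0.250). For Rcan1 they were Yipf4, Snrpe and Hnrnpc, at 0.329 to 0.353. The closest for Nfatc3 were Cox18, Lztfl1 and Snx12 (0.241 to 0.338). Ppp3ca was followed by Polk, Rab12 and Setd7 (0.344 to 0.382), Ppp3cb by Nfyb, Ciao2a and Gid4 (0.375 to 0.434), and Ppp3r1 by Mc5r, Ubr3 and Bmi1 (0.376 to 0.437). The match for Rcan2 was therefore the tightest of the 6. The profiles span both groups, and Ptgr2, Abcd3 and Arhgap12 were themselves lower in the ASO group (log2 fold changes -1.02, -1.04 and -1.13). The Rcan2 match thus includes the group difference.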

How the data were processed

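Gastrocnemius RNA (10 libraries, paired-end, stranded poly(A) kit) was sequenced by the authors, trimmed with fastp, aligned to GRCm39 with STAR and counted with featureCounts, whose strand setting is not given in the sources used here. The deposited table holds raw counts per 3′UTR segment made by the authors, 52423 segments of at most 500 bp. Of these, 52361 matched transcripts of GENCODE M39 and were summed to 21098 genes, and the 62 unmatched held 0.0197% of counts and were left out of the gene sums. The table has 4 further per-sample columns that match no label and were not used. Library totals are 1606909 to 2632560 counts, and their number limits the precision of weakly counted genes.

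Genes passing filterByExpr were fitted with edgeR 4.0.16 in R 4.3.3 (TMM, group as the only term, quasi-likelihood test), and segments likewise. The study's own tool, DESeq2 (version 1.42.0 here), limma-voom (limma 3.58.1), other scalings, filters, depths and left-out libraries served as alternatives. The edgeR step, tested on data simulated for this comparison (7646 genes tested, 185 of the changed genes among them, 2-fold), recovered 89 with 5 false calls. The simulated data held no shift between distal and upstream segments, so these numbers do not give the rate of false calls in the libraries here. Single values were compared by two-sided exact permutation tests over libraries (Python 3.11.15), with 0.5 added to each count in ratios. The smallest possible p is 0.0079. Ratios over Ppp3ca and Ppp3cb, and the comparison of Nfatc3 with Ppp3ca, were chosen after seeing the data. The genes and lists were chosen with earlier results of these data known. Named were all 10 genes, up to 6 genes past the threshold per list with the smallest adjusted p, markers at 0, and the 3 closest profiles per gene. Prkaca and unchanged list genes of note (Rcan3, Gsk3b, the Crtc genes, Pax7, Vcam1 and Myf5) were named after their values were seen. No pair of libraries was alike within sampling noise.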

Additional observations from a re-analysis of the deposited data

Results flagged for a closer look

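Over 46 groups of 5 libraries examined for 1 library far from the others, 3 were flagged, and chance flags about 1 in 20 groups. Nfatc4 in CTRL library 1 was at 4.72 CPM, a gap of 0.729 of the range of its group to the next library, where the limit for 5 samples is 0.71, and it rests on 10 counts. The most distal Ppp3cb segment in ASO library 2 was at 24.2 CPM (gap 0.901), above the other 4 ASO libraries. The Ppp3cb segment 504 bp upstream in ASO library 4 was at 4.59 CPM (gap 0.765), below the other 4.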

How the results depend on the processing

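Rcan2 was lower and past the threshold under every alternative that could test it. The most distal counted segment alone could not test Rcan2, since that segment held 3 of its counts. Rcan1 lost its call with upper quartile scaling (1 of the 10 genes called) and on the most distal counted segment alone (log2 fold change -0.73, edgeR adjusted p = 0.15), where 0 of the 10 genes, 990 of all genes and 12 list genes in place of 25 were called. That alternative uses less of each gene and gave -0.076 for Ppp3ca, -0.13 for Ppp3r1, 0.26 for Nfatc3 and -0.40 for Rcan1 over Rcan2. With total counts only, Ppp3ca was at -0.015, Ppp3r1 at -0.076, and Nfatc3 passed the threshold at -0.38 (edgeR adjusted p = 0.032). Without a filter, the Ppp3cb segment 666 bp upstream was at 0.026. For these changes the cause was not tested.

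When 1 library was left out, 1 to 2 of the 10 genes were called. Shares shifted past 0.05, adjusted over the 5 shares, in 1 to 2 genes, and of the 2 planned ratios 0 to 1 passed. Log2 fold changes reached from -0.22 to 0.014 for Ppp3cb, from -0.083 to 0.20 for its distal segment and from -0.17 to 0.090 for the one 666 bp upstream. Share differences reached from -2.02 to 0.30 points for Ppp3ca and from -0.08 to 0.46 for Rcan2.

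Libraries of the same number in the labels did not deviate together (correlations -0.43, 0.06, 0.05, 0.06 and 0.16), and 1 of 5 pairs matched best with its own number, so the numbers do not pair the samples. With the replicate number as a block, 662 genes were higher and 1172 lower, Rcan1 was at -1.02 and Rcan2 at -1.36. Ppp3cc, Nfatc2 and Nfatc4 had few counts on few bases of their own or on 1 intronic segment, and Nfatc1 had no base of its own and was not measured.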
